A study of Mus musculus with 6 samples.

Results

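The 8 genes described here are Neurog1, Neurog2 and Nhlh2, which encode transcription factors of early neurons, the neuron genes Elavl3, Tubb3, Dcx and Stmn2, and Mir124-2hg, a host transcript of the microRNA miR-124. They were chosen by symbol, and each has 1 row among the 31053 genes counted in every library. Mouse embryonic stem cells (ESC) of an Oct1_cKO genotype (cKO below) and a Parental genotype were measured by single-cell RNA sequencing of 5′ ends in droplets, as undifferentiated ESC and on days 3 and 6 of differentiation toward mesoderm. In that protocol cells on gelatin received N2B27 medium with Bmp4 for the first days and were then moved to a DMEM-based medium with LDN-193189, which blocks BMP receptors, and Rspo3, which enhances the Wnt response. The cKO groups (ESC, day 3 and day 6) and the Parental groups (ESC, day 3 and day 6) each held 1 library, and the 4 groups of days 3 and 6 share that protocol. The labels give neither the strain, the deleted part of the Oct1 gene, the way the deletion was induced, the number of clones nor any allele carried by both genotypes. With 1 library per group there is no replicate check and no test, so every difference below is a difference between 2 libraries.

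Neurogenin 1 and neurogenin 2 are basic helix-loop-helix (bHLH) factors that commit neural progenitors to the neuronal fate. They bind E-box DNA with E proteins and switch on Notch ligands and later bHLH factors, among them those of the Nhlh family. New neurons then make neuronal RNA-binding proteins, tubulins and microtubule regulators, and miR-124 lowers transcripts of non-neuronal cells. Oct1, the product of Pou2f1, is a POU factor that binds the octamer motif.

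The promoters of 6 of the 8 genes were found by symbol in RefSeq (GRCm38.p6); Stmn2 and Mir124-2hg had no entry. The 250 bases before the start were searched on both strands for the octamer ATGCAAAT, the motif of the factor deleted here, and for the E-box CANNTG, the motif of the bHLH class. Of 32851 RefSeq promoters of that length, 526 (1.60%) held the octamer and 66.2% held an E-box. CAGATG, a form of the E-box, was held by 14.4% and CAGCTG, another form, by 13.0%. The 3 sequences printed are those of the genes with the octamer or with one of these forms of the E-box, 5′ to 3′ on the strand of the gene. Capitals mark the octamer in Neurog1 (chr13:56252181-56252430, minus strand), CAGATG in Nhlh2 (chr3:102009895-102010144, plus strand) and CAGCTG in Elavl3 (chr9:22052024-22052273, minus strand).

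Neurog1: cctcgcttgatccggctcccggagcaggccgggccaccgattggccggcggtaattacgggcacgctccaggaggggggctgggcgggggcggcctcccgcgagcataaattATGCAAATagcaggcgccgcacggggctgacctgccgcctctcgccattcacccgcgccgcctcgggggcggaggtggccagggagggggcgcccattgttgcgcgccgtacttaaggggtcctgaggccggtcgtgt

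Nhlh2: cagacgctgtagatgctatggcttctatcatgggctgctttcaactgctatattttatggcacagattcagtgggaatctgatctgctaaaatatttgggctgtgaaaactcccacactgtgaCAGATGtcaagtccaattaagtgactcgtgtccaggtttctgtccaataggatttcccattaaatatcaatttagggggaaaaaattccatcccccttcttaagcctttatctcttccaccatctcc

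Elavl3: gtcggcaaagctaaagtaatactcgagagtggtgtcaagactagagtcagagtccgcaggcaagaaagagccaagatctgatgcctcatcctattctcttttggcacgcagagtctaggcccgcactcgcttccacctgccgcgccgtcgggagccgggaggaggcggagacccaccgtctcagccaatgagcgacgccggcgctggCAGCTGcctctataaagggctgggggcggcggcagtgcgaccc

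The octamer of Neurog1 lay 130 bases before the start. Nhlh2 had 2 E-boxes, 203 and 121 bases before the start, and the nearer one is the CAGATG in capitals. Elavl3 also had 2, at 111 and 37 bases, and the nearer one is the CAGCTG in capitals. The windows of Neurog2, Tubb3 and Dcx held neither the octamer nor an E-box, and that of Neurog1 held no E-box. A match describes these letters and is no evidence of binding.

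Of 11046 barcodes, 7096 were kept, those with 1000 genes or more and no more than 10% of their UMIs (unique molecular identifiers, each a counted RNA molecule) from mitochondrial genes, 530 in cKO and 1396 in Parental ESC, 1026 and 948 at day 3, and 1650 and 1546 at day 6. Library totals ranged from 41665721 to 85102600 UMIs. The median kept cell held 70990.5 UMIs in cKO and 51732.5 in Parental ESC, 79002.5 and 82544 at day 3, and 30925 and 36219 at day 6. Pou2f1 measured 21.5 CPM (UMIs per 1000000 of the library's kept cells) in cKO and 30.1 in Parental ESC, 12.6 and 28.3 at day 3, and 16.0 and 30.9 at day 6. Since the deleted part is not given, a count of 5′ ends does not check the deletion. All 7 markers of pluripotency looked at reached 5 CPM in both ESC libraries, and the streak gene T measured 34.1 CPM in cKO and 42.2 CPM in Parental cells at day 3. Of 8 somite markers 3 reached 5 CPM in cKO and 5 in Parental cells at day 6. In all, 9 barcodes recurred, summed over the pairs of libraries. Intervals in parentheses are 95% intervals, exact Poisson for CPM, exact conditional for log2 ratios of CPM and Clopper-Pearson for shares, and they cover counting error only.

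At day 6, 6 of the 7 genes that reached 5 CPM in either library were at least 2-fold lower in cKO than in Parental cells and 0 were higher. Among all 10065 genes at that level 6.76% were at least 2-fold lower and 5.63% at least 2-fold higher. The median log2 ratio of cKO over Parental was −4.01 for the 7 genes and −0.05 for all genes. The gene that did not differ in this way was Stmn2. Neurog2, the gene below 5 CPM, had 2 UMIs in the cKO library and 272 in the Parental library. In such sums over a library, fewer cells of a type and less RNA per cell cannot be told apart. The direction did not hold in every group of cells. Among cells with a high share of UMIs from chromosome 11, described further on, 0 of the 7 genes were at least 2-fold lower in cKO. There 2 were at least 2-fold higher, and the median log2 ratio was 0.85 for the 7 and −0.02 for all genes. These 2, Neurog1 and Dcx, were seen in only 4 and 5 cKO cells of that group. The share of all genes that differed 2-fold in that group is not given here, so these counts have no background beside them.

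**Figure D1:**
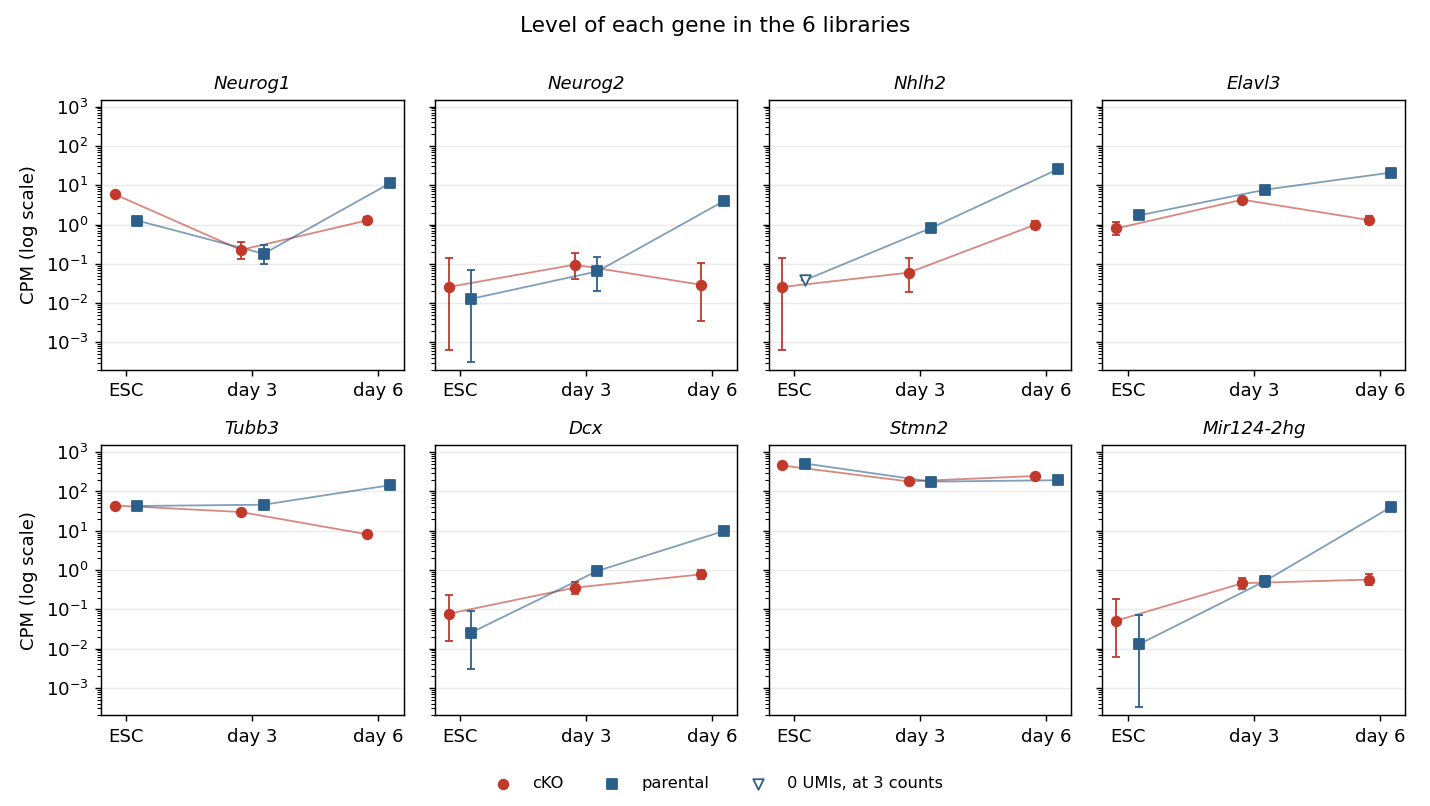
Level of each of the 8 genes in the 6 libraries, as CPM on a log axis by stage. Red circles are cKO and blue squares Parental libraries, bars are exact Poisson 95% intervals, and the open triangle marks 0 UMIs, drawn at 3 counts. At day 6 the cKO library lies below the Parental library for 7 of the 8 genes, with Mir124-2hg at 0.571 and 40.7 CPM and Stmn2, the exception, at 248 and 194 CPM.

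Neurog1 (ENSMUSG00000048904, mm10 chr13:56250478-56252163, minus strand) measured 5.88 CPM in cKO and 1.26 CPM in Parental ESC, 0.226 and 0.180 CPM at day 3, and 1.27 CPM (1.02 to 1.57) in cKO and 11.2 CPM (10.4 to 12.02) in Parental cells at day 6. The cKO library was thus the higher one in ESC and the lower one at day 6, and at day 3 the intervals overlapped. The log2 ratio was 2.22 (1.88 to 2.58) in ESC and −3.14 (−3.47 to −2.82) at day 6. At day 6 Neurog1 was seen in 9 of 1650 cKO cells (0.545%) and in 133 of 1546 Parental cells (8.60%). A single cKO cell held 42 of the 87 cKO UMIs, and without the richest cell of each library the ratio was −4.01 (−4.48 to −3.57).

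The Neurog1 of ESC lay mostly in cells without UMIs of Neurog2, Nhlh2, Elavl3, Dcx and Mir124-2hg. It was seen in 64 of 530 cKO cells (12.1%, 9.42 to 15.2) and in 47 of 1396 Parental cells (3.37%, 2.48 to 4.45). With each cell thinned to 3000 UMIs, so that depths match, the shares were 1.55% (8 cells) and 0.441% (6 cells). The 7 cKO ESC richest in these genes, holding between 9 and 24 UMIs of Neurog1 each, had 0 UMIs of those 5 genes, 1 to 8 UMIs of Tubb3 and 3 to 72 UMIs of Stmn2. The 10 cells with most Neurog1 held 56.8% of its UMIs in cKO and 53.1% in Parental ESC. The difference rests on how barcodes were filtered: with 2000 genes or more and no more than 5% of UMIs from mitochondria, which leaves 86 cKO and 457 Parental ESC, Neurog1 measured 1.53 and 1.63 CPM and the log2 ratio was −0.092.

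Neurog2 (ENSMUSG00000027967, chr3:127633135-127635631, plus strand) measured 0.0257 CPM in cKO and 0.0128 CPM in Parental ESC, 0.0951 and 0.0643 CPM at day 3, and 0.0293 CPM (0.00355 to 0.106) in cKO and 3.93 CPM (3.47 to 4.42) in Parental cells at day 6. Only the Parental library of day 6 stood above the others, whose counts ran from 1 to 8 UMIs. The log2 ratio at day 6 was −7.07 (−10.12 to −5.20). It was seen in 2 cKO cells (0.121%) and 63 Parental cells (4.08%) of day 6. After thinning to 3000 UMIs it was seen in 0 of 1495 cKO cells, which allows a share of up to 0.201%, and in 1.04% of Parental cells.

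Nhlh2 (ENSMUSG00000048540, chr3:102010076-102015492, plus strand), a bHLH factor of newly formed neurons, measured 0.0257 CPM in cKO ESC and was at 0 UMIs in Parental ESC. It measured 0.0594 CPM in cKO and 0.823 CPM in Parental cells at day 3, and 0.981 CPM (0.760 to 1.25) and 25.3 CPM (24.1 to 26.5) at day 6. The cKO library was lower on both days of differentiation, with a log2 ratio of −3.79 (−5.46 to −2.49) at day 3 and −4.69 (−5.06 to −4.34) at day 6. At day 3 the counts were 5 and 64 UMIs, and a single Parental cell held 46 of the 64. At day 6 Nhlh2 was seen in 9 cKO cells (0.545%) and 153 Parental cells (9.90%). Without the richest cell of each library its ratio at day 6 was −5.50 (−6.01 to −5.03).

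Elavl3 (ENSMUSG00000003410, chr9:22015005-22052023, minus strand), a neuronal RNA-binding protein of the Hu family, measured 0.796 CPM in cKO and 1.71 CPM in Parental ESC, 4.29 and 7.71 CPM at day 3, and 1.30 CPM (1.05 to 1.60) and 21.0 CPM (19.98 to 22.2) at day 6. The cKO library was the lower one at each stage. The log2 ratio was −1.10 (−1.71 to −0.53) in ESC, −0.85 (−1.04 to −0.66) at day 3 and −4.01 (−4.34 to −3.70) at day 6. It was seen in 216 cKO cells (21.1%) and 257 Parental cells (27.1%) at day 3, and in 16 (0.970%) and 247 (16.0%) at day 6. An annotated gene that overlaps it on the same strand, Gm49318, had 0 UMIs in the kept cells of each library.

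Tubb3 (ENSMUSG00000062380, chr8:123411424-123422015, plus strand), the class III beta-tubulin used as a marker of neurons, measured 44.0 CPM in cKO and 42.8 CPM in Parental ESC, 30.03 and 46.1 CPM at day 3, and 8.14 CPM (7.48 to 8.85) and 144 CPM (142 to 147) at day 6. It was detected before differentiation at nearly the same level in both genotypes, and the libraries parted later. The log2 ratio was 0.04 (−0.04 to 0.12) in ESC, −0.62 (−0.69 to −0.54) at day 3 and −4.15 (−4.27 to −4.03) at day 6. Most of the difference at day 3 lay in few cells. The 10 cells with most Tubb3 held 21.9% of its UMIs in cKO and 44.3% in Parental cells, and 1 Parental cell held 624 UMIs. Without the richest cell of each library the values were 27.7 CPM in cKO and 38.1 CPM in Parental cells, a ratio of −0.46 (−0.54 to −0.38). Outside the 2 cKO and 6 Parental cells of day 3 that held at least 3 of the 6 genes other than Stmn2 and Tubb3, Tubb3 measured 27.7 CPM (26.6 to 28.9) in cKO and 29.2 CPM (27.97 to 30.4) in Parental cells. At day 6 Tubb3 was seen in 62 cKO cells (3.76%) and 538 Parental cells (34.8%). The overlapping gene Gm20388 had 0 UMIs in the kept cells.

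Dcx (ENSMUSG00000031285, chrX:143855842-143933311, minus strand), a microtubule-associated protein of migrating young neurons, measured 0.0770 CPM in cKO and 0.0257 CPM in Parental ESC, 0.357 and 0.951 CPM at day 3, and 0.776 CPM (0.581 to 1.02) and 9.80 CPM (9.08 to 10.6) at day 6. Both genotypes stood highest at day 6, and the cKO library was lower on both days. The log2 ratio was −1.42 (−2.08 to −0.79) at day 3 and −3.66 (−4.09 to −3.25) at day 6. Without the richest cell of each library the day 3 value was −0.72 with an interval that includes 0 (−1.51 to 0.05). At day 6 Dcx was seen in 7 cKO cells (0.424%) and 105 Parental cells (6.79%).

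Mir124-2hg (ENSMUSG00000100252, chr3:17789921-17808970, plus strand), a long noncoding RNA whose locus contains Mir124a-2, measured 0.0514 CPM in cKO and 0.0128 CPM in Parental ESC, 0.464 and 0.527 CPM at day 3, and 0.571 CPM (0.406 to 0.781) and 40.7 CPM (39.2 to 42.2) at day 6. The libraries were within counting error of each other at day 3, and at day 6 the Parental library stood apart from the other 5. The log2 ratio at day 6 was −6.16 (−6.65 to −5.70), a level 71.3-fold higher in Parental cells. The transcript was seen in 19 cKO cells (1.15%) and 524 Parental cells (33.9%) of day 6. The mature microRNA is not measured by this assay.

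Stmn2 (ENSMUSG00000027500, chr3:8509360-8561606, plus strand), a stathmin that regulates microtubules in growing axons, did not follow the other genes. It measured 459 CPM in cKO and 515 CPM in Parental ESC, 181 and 178 CPM at day 3, and 248 CPM (244 to 252) and 194 CPM (191 to 197) at day 6. Its log2 ratio was −0.16 (−0.19 to −0.14) in ESC, 0.02 (−0.01 to 0.06) at day 3 and 0.35 (0.32 to 0.39) at day 6. It was the only one of the 8 genes seen in most cells of every library, in 94.3% of cKO and 91.0% of Parental ESC, 96.0% and 90.3% of cells at day 3, and 59.0% and 55.6% at day 6. Thinned to 3000 UMIs, the shares at day 6 were 31.5% in cKO and 26.0% in Parental cells.

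**Figure D2:**
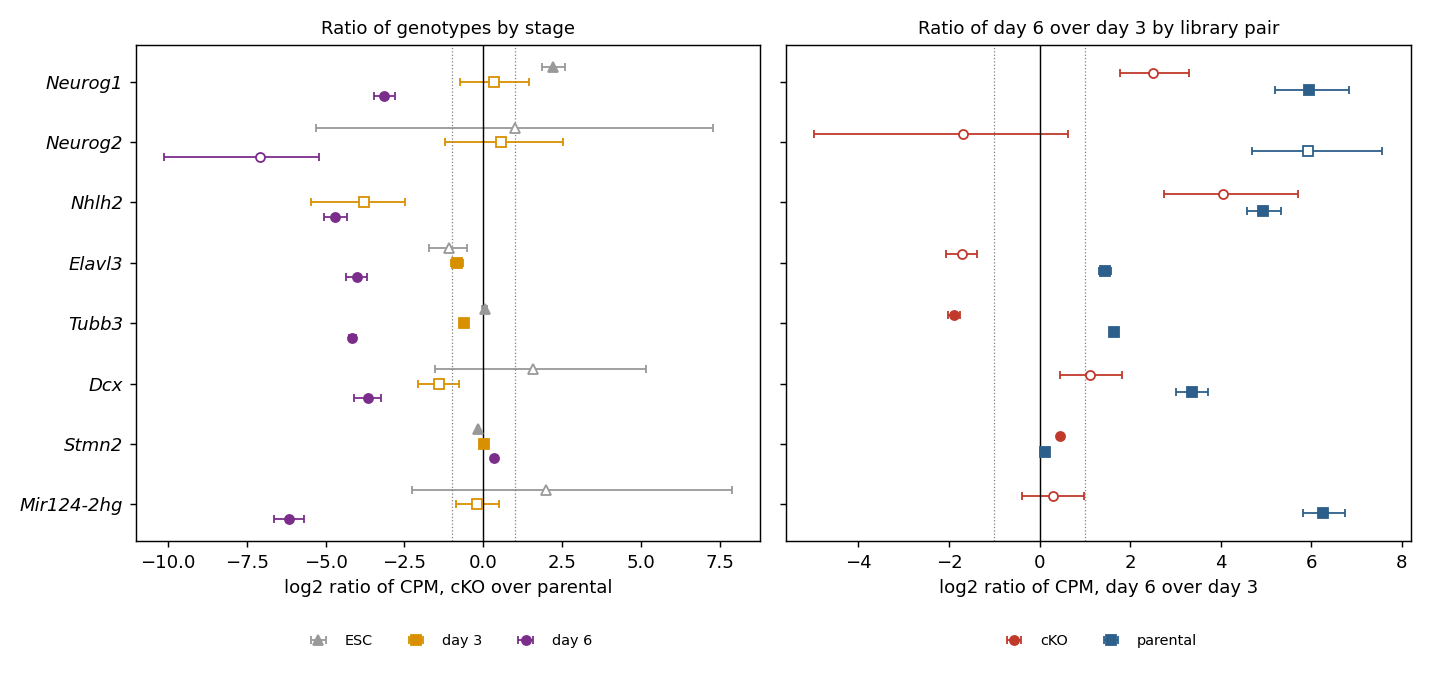
Log2 ratios of CPM with exact conditional 95% intervals, by gene. The left panel gives cKO over Parental at each stage and the right panel day 6 over day 3 in each genotype; open symbols mark genes under 5 CPM in both libraries, and dotted lines mark 2-fold. Nhlh2 in ESC is not drawn, since it had 1 UMI in cKO and 0 in Parental cells. In the right panel Elavl3 and Tubb3 lie left of 0 in cKO, at −1.72 and −1.88, and right of 0 in Parental cells, at 1.45 and 1.65.

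From day 3 to day 6 most of these genes were higher in Parental cells, while in cKO only Tubb3 and Stmn2 reached 5 CPM on either day. In Parental cells 6 of 7 genes at that level were at least 2-fold higher at day 6, against 18.3% of all 10058 genes, with a median log2 ratio of 3.37 against 0.22. In cKO 0 of 2 were at least 2-fold higher, against 23.0% of 9835 genes, and 1 of 2, Tubb3, was lower, against 7.72%. Tubb3 had a log2 ratio of day 6 over day 3 of −1.88 (−2.02 to −1.75) in cKO and 1.65 (1.59 to 1.70) in Parental cells. Elavl3 had −1.72 (−2.07 to −1.38) in cKO, below 5 CPM, and 1.45 (1.31 to 1.59) in Parental cells. Both genes thus had ratios of opposite sign in the 2 genotypes, a difference that was not tested. Not every gene was lower at day 6 in cKO: Neurog1 had 2.50 (1.77 to 3.30), Nhlh2 4.05 (2.75 to 5.71) and Dcx 1.12 (0.45 to 1.82), all below 5 CPM. In Parental cells these 3 genes had 5.96, 4.94 and 3.37. Mir124-2hg had 0.30 (−0.38 to 0.98) in cKO and 6.27 (5.83 to 6.75) in Parental cells. TMM scaling moved the median of all genes in this step to −0.01 in both genotypes, against 0.26 in cKO and 0.22 in Parental cells without it.

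From ESC to day 3 the genes differed in direction. Elavl3 was higher at day 3 in both genotypes, with a log2 ratio of 2.43 (1.90 to 3.01) in cKO and 2.18 (1.90 to 2.46) in Parental cells. Stmn2 was lower in both, at −1.35 in cKO and −1.53 in Parental cells. Neurog1 was lower in both as well, at −4.70 (−5.46 to −4.03) and −2.81 (−3.73 to −1.99). Tubb3 had −0.55 (−0.64 to −0.46) in cKO and 0.11 (0.04 to 0.17) in Parental cells, where it was −0.15 (−0.22 to −0.07) without the richest cell of each library. The sample titles of ESC and of later libraries carry different number prefixes, and what these stand for is not given.

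A few day 3 cells held several of the neuron genes when depths were not matched. At least 3 of the 6 genes other than Stmn2 and Tubb3 were found in 2 cKO cells and 6 Parental cells. This set of 6 was chosen after the values were seen because those 2 genes are detected in most ESC. The median depth was 182364 UMIs in the 2 cKO cells and 78916 in the other cKO cells, and 107396 and 82490 UMIs in Parental cells. With each cell thinned to 3000 UMIs, 0 of 1023 cKO cells and 0 of 922 Parental cells held at least 3 of the 6 genes. At 10000 UMIs the counts were 0 of 992 and 1 of 847. The 6 Parental cells held 37.2% of the Tubb3 UMIs, 95.3% of Nhlh2, 64.9% of Dcx and 61.0% of Mir124-2hg in their library, but 14.7% of Elavl3, 1.91% of Stmn2 and 0 of 5 UMIs of Neurog2. The 2 cKO cells held 8.04% of Tubb3, 6 of the 30 Dcx UMIs, 30.8% of Mir124-2hg and 80.0% of the 5 Nhlh2 UMIs. Chromosome 11 was high, by the score described further on, in 0 of the 2 cKO cells and 5 of the 6 Parental cells. The richest Parental cell had 624 UMIs of Tubb3, 46 of Nhlh2, 36 of Dcx, 28 of Elavl3 and 7 of Mir124-2hg. The richest cKO cell had 202 of Tubb3, 12 of Elavl3, 12 of Mir124-2hg, 5 of Dcx and 4 of Nhlh2. The 2 cKO cells together had 203, 14, 12, 6 and 4 UMIs of these genes, so nearly all lay in that 1 cell.

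At day 6 cells with several of the genes made up a far smaller share of the cKO library. With each cell thinned to 3000 UMIs, at least 3 of the 8 genes were seen in 5 of 1495 cKO cells (0.334%, 0.109 to 0.779) and in 100 of 1448 Parental cells (6.91%, 5.65 to 8.34). Thinning left out 155 cKO and 98 Parental cells with fewer UMIs. In ESC there was 1 such cell of 516 in cKO and 1 of 1360 in Parental, and at day 3 there were 3 of 1023 and 2 of 922. Without thinning the day 6 counts were 10 of 1650 cells (0.606%) and 351 of 1546 cells (22.7%).

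**Figure D3:**
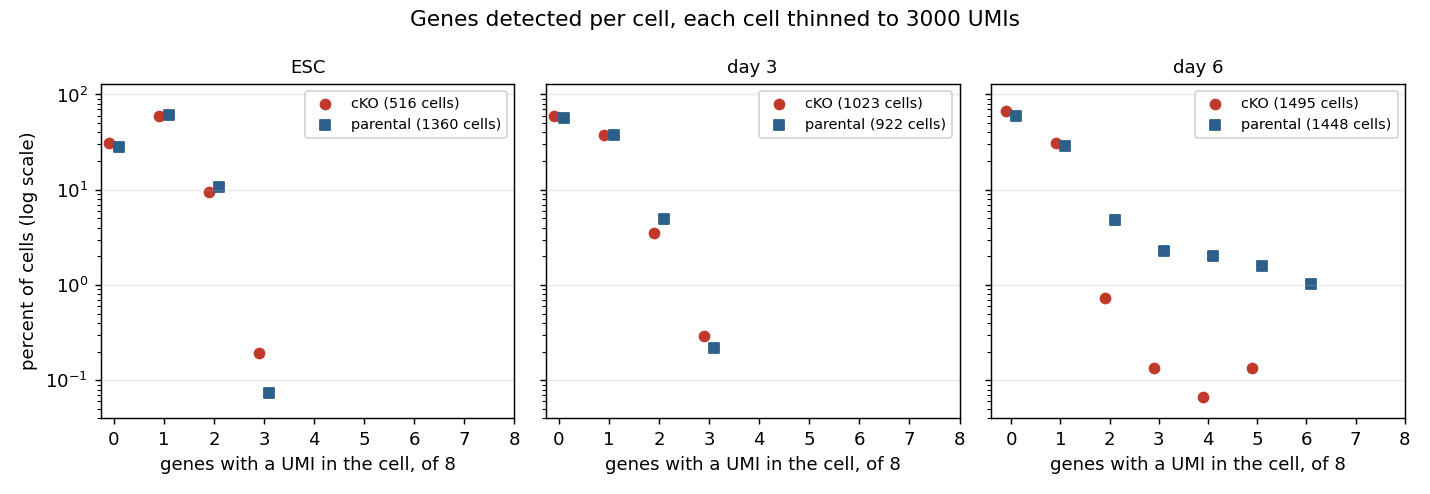
Percent of cells, on a log axis, by the number of the 8 genes with a UMI, with each cell thinned to 3000 UMIs. Red circles are cKO and blue squares Parental cells; numbers with no cell are not drawn. In ESC 1 cell of each genotype had 3 or more genes, and at day 6 cells with 3 or more genes are 0.334% of cKO and 6.91% of Parental cells.

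A small set of cells, chosen for holding several of the genes, carried most UMIs of Neurog1, Nhlh2, Elavl3, Dcx and Tubb3 in both libraries. The same did not hold for Stmn2 in either library, Mir124-2hg in Parental cells or Neurog2 in cKO. At least 3 of the 6 genes other than Stmn2 and Tubb3 were seen in 7 cKO cells (0.424%) and 151 Parental cells (9.77%) of day 6. The 7 cKO cells held 79.3% of the Neurog1 UMIs of their library, 91.0% of Nhlh2, 83.1% of Elavl3, 98.1% of Dcx, 66.7% of Mir124-2hg and 52.5% of Tubb3, but 0.372% of Stmn2. The 151 Parental cells held 79.0% of Neurog1, 96.6% of Nhlh2, 86.4% of Elavl3, 98.1% of Dcx, 43.6% of Mir124-2hg, 83.9% of Tubb3 and 24.8% of Stmn2. Summed over such cells, with median depths of 22043 UMIs in cKO and 30849 in Parental cells, Tubb3 measured 1134 CPM (1007 to 1271) in cKO and 1000.01 CPM (979 to 1022) in Parental cells. Neurog1 measured 268 and 73.1 CPM, Nhlh2 237 and 202 CPM, Elavl3 287 and 150.04 CPM, and Dcx 202 and 79.4 CPM. Of the 69 Neurog1 UMIs in the 7 cKO cells, 42 lay in 1 cell. Mir124-2hg measured 101 and 146 CPM and Stmn2 245 and 397 CPM. The choice of the cells fixes that the 6 genes are high in them. Neurog2 had 0 UMIs in the 7 cKO cells and 188 UMIs in the 151 Parental cells. Pou2f1 measured 27.2 CPM (10.9 to 56.0) in the 7 cKO cells, from 7 UMIs, and 15.99 CPM in the other cKO cells. In the 151 Parental cells it measured 41.8 CPM.

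The genes were detected together in Parental cells of day 6 in a graded way. Of the 105 cells with Dcx, 95.2% had Tubb3, 94.3% Stmn2, 87.6% Elavl3, 85.7% Mir124-2hg and 83.8% Nhlh2. Fewer of them had the proneural factors, with 54.3% for Neurog1 and 12.4% for Neurog2. The neurogenins met in 17 cells. These were 12.8% of the 133 cells with Neurog1, against 3.26% of the cells without it, and 27.0% of the 63 cells with Neurog2, against 7.82% of the cells without it. Of the cells with Neurog1, 88.7% had Mir124-2hg, 67.7% Elavl3 and 55.6% Nhlh2, against 28.7%, 11.1% and 5.59% of the cells without it. Of the 153 cells with Nhlh2, 57.5% had Dcx, against 1.22% of the cells without Nhlh2.

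**Figure D4:**
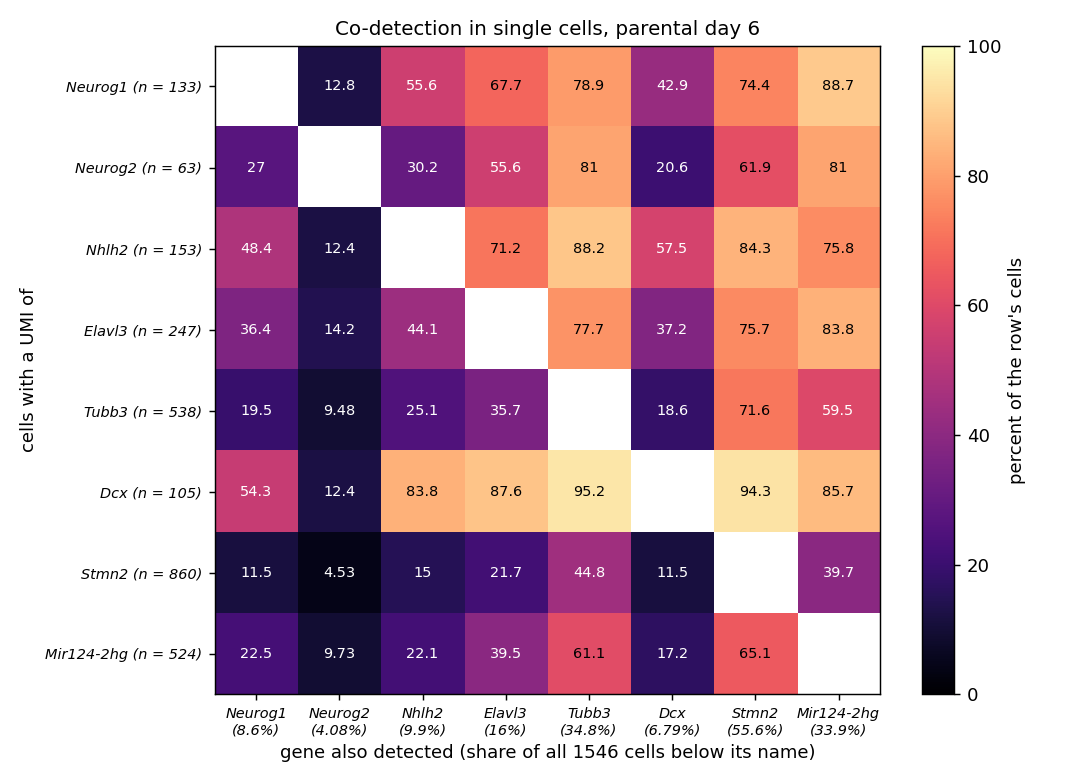
Co-detection in the Parental library of day 6. Each square gives the percent of cells with a UMI of the row's gene that also had a UMI of the column's gene; the share of all cells with the column's gene stands under its name. Rows of Dcx and Nhlh2 are high across most columns, while Neurog1 and Neurog2 meet in 12.8% and 27.0% of their cells.

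Correlations over the 1546 Parental cells of day 6, on the natural log scale of UMIs per 10000 plus 1, are given as further descriptions. Pearson's r was 0.79 for Nhlh2 with Tubb3, 0.77 for Elavl3 with Tubb3, 0.73 for Nhlh2 with Dcx and 0.71 for Nhlh2 with Elavl3. It was 0.05 for Neurog1 with Neurog2, 0.06 for Neurog2 with Dcx and 0.12 for Stmn2 with Mir124-2hg. All cells share 1 library and differ in depth. Among 14563 genes seen in at least 1% of these cells, those most like the mean of the 8 genes were Elavl4 (r = 0.80), Scrt2 (0.77), Onecut2 (0.76), Ina (0.76), Tagln3 (0.76) and Stmn3 (0.76). The 6 were picked in the Parental library alone, where most of the 8 genes were higher, so their lower cKO levels are no separate evidence. At day 6 Scrt2, a zinc finger repressor, measured 0.132 CPM in cKO and 6.91 CPM in Parental cells. Onecut2, a homeodomain factor, measured 7.69 and 36.3 CPM. Ina, an intermediate filament of axons, measured 2.67 and 25.4 CPM, and Tagln3 measured 1.54 and 16.5 CPM. Most like a single one of the 8 genes, named after these values were seen, were Nhlh1 for Neurog1 (0.63), Hes6 for Neurog2 (0.43), Pou3f2 for Mir124-2hg (0.66) and Map2 for Dcx (0.82).

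To see which cells carried the genes, the cells of day 6 of both libraries were clustered without the 8 genes and named from markers of other genes. A neuron-like cluster, led by genes such as Nhlh1, Srrm4 and Ina, held 6 cKO cells (0.364%, 0.134 to 0.790) and 93 Parental cells (6.02%, 4.88 to 7.32). The 2 clusters called neural progenitor-like held 20 cKO cells (1.21%) and 502 Parental cells (32.5%). In the Parental library these clusters together held 97.9% of the UMIs of Nhlh2, 97.9% of Dcx, 97.3% of Mir124-2hg, 96.7% of Neurog2, 95.7% of Elavl3, 91.8% of Neurog1, 90.0% of Tubb3 and 39.4% of Stmn2. In cKO they held 80.5% of Neurog1, 79.2% of Dcx, 73.0% of Elavl3, 67.2% of Nhlh2, 66.7% of Mir124-2hg, 38.5% of Tubb3 and 0.780% of Stmn2. What part cell shares and RNA per cell each have in the ratios over whole libraries was not tested.

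Within the neuron-like cluster the 2 libraries were closer than over all cells for 6 genes. For Stmn2 they were further apart, and Neurog2 had 0 UMIs in cKO. The cells were grouped by other genes that vary with these, so high levels in them follow in part from the grouping. Neurog1 measured 501 CPM (390 to 634) in the 6 cKO cells and 160 CPM (143 to 179) in the 93 Parental cells. Of the 69 cKO UMIs of Neurog1, 42 lay in 1 cell, and of the 214 of Tubb3, 102 lay in another. The 6 cells overlap the 7 cKO cells chosen above, which held the same 69 UMIs of Neurog1, so the 2 sets are not separate readings. Nhlh2 measured 320 and 605 CPM, Elavl3 465 and 356 CPM, and Dcx 305 and 195 CPM. Tubb3 measured 1554 CPM (1353 to 1777) and 2884 CPM (2809 to 2960), and Mir124-2hg 167 CPM (106 to 251) and 299 CPM (275 to 324). The log2 ratios of these 6 genes ran from −0.92 for Nhlh2 to 1.65 for Neurog1. Stmn2 measured 174 CPM (112 to 259) in cKO and 997 CPM (953 to 1042) in Parental cells, a ratio of −2.52 (−3.16 to −1.94), and was seen in 2 of 6 and in 74 of 93 cells. Neurog2 had 0 UMIs in cKO and measured 70.5 CPM in Parental cells. With 6 cells in 1 library these levels are loosely held: at clustering resolution 1.2 the ratios were 2.52 for Neurog1, 1.39 for Dcx, 1.14 for Elavl3, 0.12 for Nhlh2, 0.11 for Tubb3, −0.12 for Mir124-2hg and −1.69 for Stmn2. Median UMIs per cell were 21576 in cKO and 21852 in Parental cells.

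**Figure D5:**
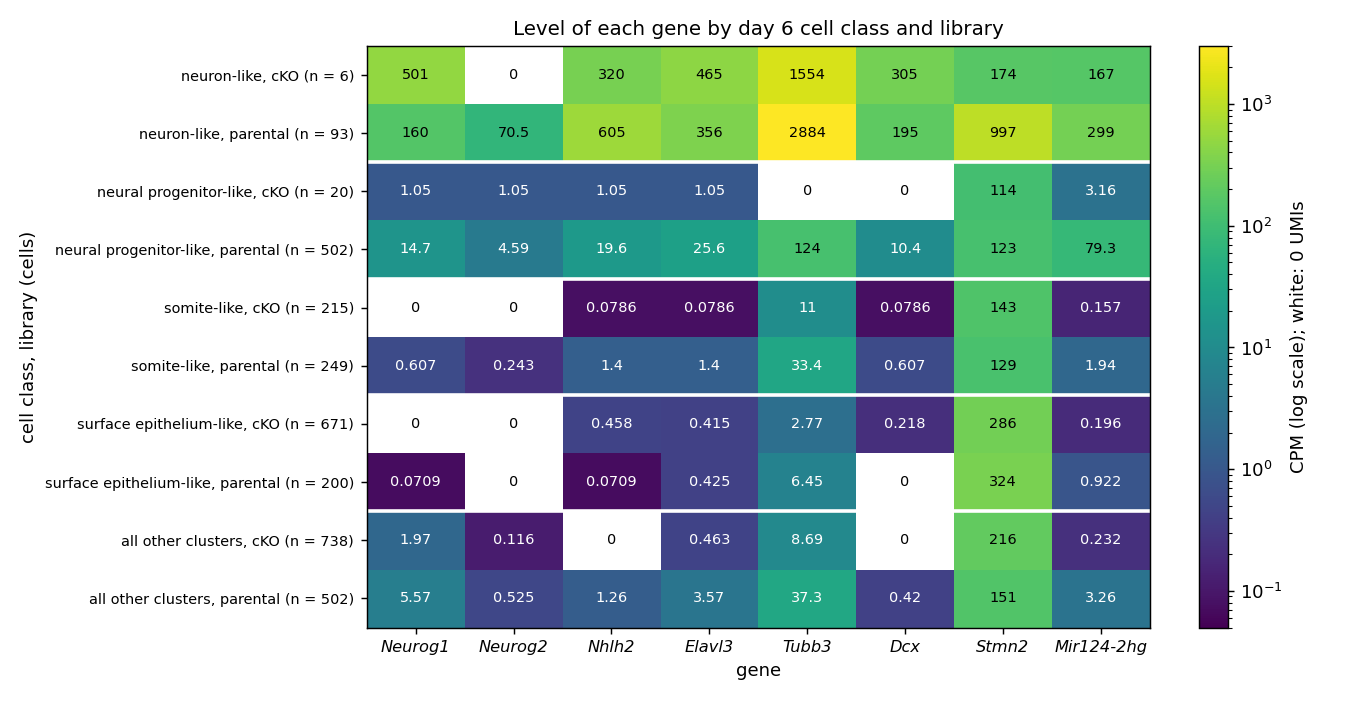
Level of each gene, as CPM on a log colour scale, in classes of day 6 cells formed without these genes. Each class has a cKO row above a Parental row, with the number of cells, and white marks 0 UMIs. In the neuron-like class the log2 ratios of 6 genes lie between −0.92 and 1.65, while in the progenitor-like class Tubb3 is at 0 UMIs in cKO and at 124 CPM in Parental cells.

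In the neural progenitor-like cells, with a median of 42055.5 UMIs per cell in cKO and 42059 in Parental cells, the genes other than Stmn2 had 0 to 3 UMIs each in cKO. Mir124-2hg measured 3.16 CPM (0.653 to 9.25) in 20 cKO cells and 79.3 CPM (76.0 to 82.7) in 502 Parental cells, of which 80.5% had a UMI. Tubb3 had 0 UMIs in cKO and measured 124 CPM (119 to 128) in Parental cells. Elavl3 measured 1.05 CPM in cKO, from 1 UMI, and 25.6 CPM in Parental cells. Neurog1 measured 1.05 and 14.7 CPM, Nhlh2 1.05 and 19.6 CPM, and Neurog2 1.05 and 4.59 CPM, each from 1 UMI in cKO. Dcx had 0 UMIs in cKO and measured 10.4 CPM in Parental cells. Stmn2 over the class measured 114 CPM (93.4 to 138) in cKO and 123 CPM (119 to 127) in Parental cells. The 2 clusters of this class were made up differently: 7 of 20 cKO cells and 317 of 502 Parental cells lay in the cluster led by Fabp7, Pantr1 and Id4, and the rest in the cluster led by Hoxb9 and Hoxc8. The cluster led by Hoxb9 also had neuron markers such as Elavl4 and Map2, and in Parental cells it held 282 of the 284 Dcx UMIs of the class, 523 of 534 of Nhlh2 and 2912 of 3362 of Tubb3. In Parental cells of the cluster led by Fabp7, Dcx measured 0.160 CPM, Nhlh2 0.882 CPM, Tubb3 36.1 CPM and Mir124-2hg 98.5 CPM. Stmn2 measured 318 CPM in cKO and 129 CPM in Parental cells of that cluster, and 12.6 and 117 CPM in the one led by Hoxb9.

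In the Parental library the other classes held few of the transcripts except those of Stmn2. In cKO their share was larger. Surface epithelium-like cKO cells held 31.3% of the Nhlh2 UMIs, in 2 cells, and 23.1% of Mir124-2hg, 22.8% of Tubb3, 21.3% of Elavl3 and 18.9% of Dcx. Somite-like cKO cells held 25.2% of Tubb3. The clusters outside all these classes held 19.5% of Neurog1 and 13.5% of Tubb3 in cKO. In somite-like cells, the mesoderm that the protocol aims at, Mir124-2hg was seen in 0.930% of 215 cKO cells and 6.02% of 249 Parental cells, and Nhlh2 in 0.465% and 6.43%. Their median depths were 45092 and 53472 UMIs. Tubb3 measured 10.998 CPM in cKO and 33.4 CPM in Parental somite-like cells. In surface epithelium-like cells Mir124-2hg was seen in 0.894% of 671 cKO cells and 2.50% of 200 Parental cells, at median depths of 58453 and 59566.5 UMIs. Of the neural-like cells, 9 of 26 in cKO (34.6%) and 483 of 595 in Parental (81.2%) had Mir124-2hg. The 9 cells are among the 19 cKO cells of day 6 that had it. Free RNA was not measured. All 10 Dcx UMIs of the epithelium-like cKO cells lay in 1 cell, which had 119911 UMIs in all together with 17 of Nhlh2 and 78 of Tubb3.

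In cKO Stmn2 was carried mainly by cells outside the neural-like clusters. Surface epithelium-like cells held 77.5% of its UMIs in cKO and 34.04% in Parental cells of day 6. In the Parental library the neural-like clusters held 39.4%, and its level was highest in the neuron-like cluster, at 997 CPM. In surface epithelium-like cells it measured 286 CPM (281 to 291) in cKO and 324 CPM (315 to 334) in Parental cells, seen in 79.7% and 82.5% of cells. In somite-like cells it measured 143 and 129 CPM. The surface epithelium-like class joins 2 clusters, of 302 and 369 cKO cells and of 125 and 75 Parental cells. In the first Stmn2 measured 256 CPM in cKO and 332 CPM in Parental cells, and in the second 319 and 306 CPM. The class made up 40.7% of cKO and 12.9% of Parental cells. Stmn2 was thus lower in cKO within the class as a whole, though not within each cluster of it, and higher in cKO over the library.

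The genes also varied with a chromosome score that splits the Parental library. The score was set up in earlier work on these data after they were seen, from each cell's share of UMIs on chromosomes 1, 6 and 8 and on chromosome 11. Each share was taken on the log2 scale over the median of the cKO cells of the same stage. The score is the mean for chromosomes 1, 6 and 8 minus the value for chromosome 11. Cells more than 0.25 above a score of 0 are called chromosomes 1, 6 and 8 high, and cells more than 0.25 below it chromosome 11 high. Each name is thus relative, and a cell low in chromosomes 1, 6 and 8 can be called chromosome 11 high. Cells within 0.25 of a score of 0 form the group called neither. That group is thus defined around the cKO cells, and the groups are not independent of genotype. In Parental cells of day 6, Nhlh2 measured 66.7 CPM in the 472 cells with chromosomes 1, 6 and 8 high, 17.9 CPM in the 272 cells of neither group and 7.43 CPM in the 802 cells with chromosome 11 high. Tubb3 measured 351, 117 and 51.1 CPM and Mir124-2hg 98.6, 35.7 and 13.2 CPM in that order. In cKO, 143 cells had chromosome 11 high and held 70 of the 87 UMIs of Neurog1 and 54 of the 67 UMIs of Nhlh2. Of the cells with at least 3 of the 6 genes, 6 of 7 in cKO and 29 of 151 in Parental had chromosome 11 high. Within the cells of neither group, 1446 in cKO and 272 in Parental, Nhlh2 measured 0.206 and 17.9 CPM, Tubb3 5.201 and 117 CPM, and Mir124-2hg 0.143 and 35.7 CPM. The median log2 ratio over the 7 genes was −5.55 in that group. A further comparison was among the cells with chromosome 11 high, 143 in cKO and 802 in Parental. Of the 6 genes other than Neurog2 and Stmn2, 5 were higher in cKO there by CPM. Neurog1 measured 18.6 CPM (14.5 to 23.5) in cKO and 5.19 CPM (4.47 to 6.001) in Parental cells, Dcx 10.4 and 3.77 CPM, Nhlh2 14.3 and 7.43 CPM, Elavl3 15.7 and 8.68 CPM, and Tubb3 60.5 and 51.1 CPM. Mir124-2hg was lower in cKO there as well, at 7.43 and 13.2 CPM, and so was Neurog2, at 0.265 and 0.738 CPM. The cKO values rest on few cells: Neurog1 was seen in 4, Dcx and Nhlh2 in 5 each, Elavl3 in 7 and Tubb3 in 9. In 1 cKO cell lay 42 of the 70 UMIs of Neurog1. By share of cells, cKO was lower for Neurog1 (2.80% and 3.24%), Nhlh2 (3.50% and 4.74%), Elavl3 (4.90% and 7.98%) and Tubb3 (6.29% and 22.6%). For Dcx it was higher (3.50% and 2.87%). The 61 cKO cells with chromosomes 1, 6 and 8 high held 0 UMIs of Neurog1, Neurog2, Nhlh2, Elavl3, Tubb3 and Dcx and 2 UMIs of Mir124-2hg. Tubb3 lies on chromosome 8, so its own counts enter the score. What part the score plays in the levels was not tested.

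Genes of the same pathways at day 6 were taken from lists that partly share members (among others Elavl2, Elavl4, Stmn3, Stmn4, Hes1 and Hes5 each stand in more than one list) and hold none of the 8 genes. Of 14 other proneural and neuronal bHLH genes 2 reached 5 CPM, and both were at least 2-fold lower in cKO. Among them was Nhlh1, the paralog of Nhlh2, at 0.659 CPM in cKO and 6.87 CPM in Parental cells (−3.38, −3.86 to −2.94). Of 12 measured genes of neural progenitors all 12 were lower, with a median of −3.62. Pax6 measured 0.351 CPM in cKO and 38.0 CPM in Parental cells, Rfx4 0.410 and 19.6 CPM, and Sox1 0.879 and 29.8 CPM. The shares of 6.76% lower and 5.63% higher among all genes apply to each list.

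Notch signalling is the route through which new neurons hold back their neighbours. Of 10 measured transcripts of ligands, receptors and modulators 4 were at least 2-fold lower in cKO and 0 higher, with a median of −0.74. Dll1, a ligand induced by proneural factors, measured 1.98 CPM in cKO and 13.0 CPM in Parental cells, and the modulators Lfng and Mfng 0.864 and 6.01 CPM and 0.805 and 5.75 CPM. The 4th was Dll3, chosen after its values were seen, at 9.09 and 24.6 CPM. Of 10 measured inhibitors and partners of proneural factors 3 were lower and 0 higher, with a median of −0.39. Hes5, a Notch target that represses proneural genes, measured 3.91 CPM in cKO and 88.4 CPM in Parental cells, Id4, which binds E proteins, 2.09 and 18.5 CPM, and Hes6, which acts against Hes1, 25.3 and 65.9 CPM. Hes1 itself, chosen after its values were seen, measured 87.95 and 72.3 CPM.

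Of 29 measured other early neuron genes 20 were at least 2-fold lower in cKO and 3 higher, with a median of −1.85. Stmn3, a stathmin like Stmn2, measured 0.820 CPM in cKO and 19.8 CPM in Parental cells (−4.60, −5.01 to −4.21), Scg3, of neurosecretory granules, 0.410 and 7.42 CPM, and Elavl4, the nearest relative of Elavl3 in the list, 1.55 and 22.2 CPM. The 3 higher genes, chosen after their values were seen, were Btg2 at 224 and 94.6 CPM, Gap43 at 206 and 97.6 CPM and Gadd45g at 218 and 107 CPM. Of 14 measured paralogs in the tubulin, stathmin, Elav and doublecortin families 7 were lower and 0 higher, with a median of −0.90. Among them Dclk1, a doublecortin-like kinase, measured 1.10 CPM in cKO and 5.44 CPM in Parental cells. In ESC, Stmn3 measured 20.8 CPM in cKO and 17.5 CPM in Parental cells, so like Tubb3 it was present before differentiation.

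Of 7 measured neuron subtype and transmitter genes, from a list of 27, 4 were lower and 1 higher, with a median of −2.04. Lhx5 measured 0.439 CPM in cKO and 6.61 CPM in Parental cells and Lhx1 1.63 and 9.05 CPM, both factors of spinal interneurons. Phox2a was also lower, at 1.70 and 6.97 CPM, and the higher gene was Gata3 at 5.199 and 1.96 CPM, both chosen after their values were seen. Of 5 measured genes of neural crest and placodes, another source of Neurog1 and Neurog2, 1 was lower and 1 higher, with a median of −0.53. Tfap2b measured 1.44 CPM in cKO and 19.5 CPM in Parental cells, Erbb3 22.8 and 6.16 CPM, and Ets1 13.0 and 20.6 CPM.

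Of 11 genes around miR-124, either repressors of neuron genes or known targets of the microRNA, 2 were lower, 1 was higher and 8 were within 2-fold, with a median of 0.21. Rcor2, a corepressor, measured 23.9 CPM in cKO and 57.5 CPM in Parental cells, and Ptbp2, the neuronal splicing factor, 24.1 and 57.3 CPM. Ctdspl, a small phosphatase that acts with REST, measured 69.1 and 29.6 CPM (1.22, 1.15 to 1.30). Rest and Ptbp1, both chosen after their values were seen, were within 2-fold: Rest, the repressor of neuron genes in other cells, measured 106 and 82.1 CPM, and Ptbp1, a splicing repressor and miR-124 target, 118 and 151 CPM.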

How the data were processed

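UMI counts per gene and barcode were deposited for each library, made by the authors with Cell Ranger on mm10 per the submitters' processing notes and version 3.1.0 per the file headers. Library totals of 41665721 to 85102600 UMIs set the precision, and a count of 0 allows up to 3 counts. Kept cells were summed per library, scaled to CPM and compared without a test, since each group held 1 library. A gene counted as measured at 5 CPM in the higher library, and as different at 2-fold. Day 6 cells were clustered with 2000 variable genes other than the 8, 30 components, 15 neighbours and Leiden resolution 0.8, with no batch correction. A cluster was named "-like" from at least 3 detected markers. Doublets were not removed: Scrublet marked 3 cKO and 7 Parental ESC, 12 and 5 cells at day 3, and 1 and 2 at day 6, where it did not work as a filter. Named genes were the 8, Pou2f1, up to 3 per list with the largest day 6 ratio and the 6 most alike over Parental day 6 cells. Some genes that this rule names are not reported here. Members and lists were chosen with earlier results of these data known. The interval calculation was tested on simulated data. Alternatives changed scaling (TMM in edgeR 4.0.16, size factors in DESeq2 1.42.0, R 4.3.3), filters, thinning, clustering and cell groups. Python 3.11.15, numpy 2.4.6, pandas 2.3.3, scipy 1.17.1 and scanpy 1.11.5 were used.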

Additional observations from a re-analysis of the deposited data

Results flagged for a closer look

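Elavl3 and Tubb3 had ratios of opposite sign between the genotypes from day 3 to day 6. The log2 ratio of day 6 over day 3 was −1.72 in cKO and 1.45 in Parental cells for Elavl3, and −1.88 in cKO and 1.65 in Parental cells for Tubb3. From ESC to day 3 Tubb3 had −0.55 in cKO and 0.11 in Parental cells, and −0.64 and −0.15 without the richest cell of each library. With 1 library per group none of these differences was tested.

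Barcodes left out for few genes or many mitochondrial UMIs also held some of the transcripts. Neurog2 measured 20.02 CPM in the left-out barcodes of the Parental library of day 6, against 3.93 CPM in its kept cells. Of those 54 UMIs, 48 lay in 1 barcode with 29045 UMIs, of which 10.96% were mitochondrial. Mir124-2hg measured 57.8 CPM in the left-out barcodes of that library, against 40.7 CPM in kept cells, from 156 UMIs in 88 barcodes. Neurog1 measured 4.11 CPM in the left-out barcodes of cKO at day 3, against 0.226 CPM in kept cells, from 4 UMIs in 1 barcode.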

How the results depend on the processing

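No paired analysis was possible because each group held 1 library. The number of measured genes at least 2-fold lower in cKO at day 6 was 6, and 4 to 7 under the other scalings, filters and CPM minimums, with 0 higher. Among cells with chromosome 11 high, an alternative added after the data were seen, 0 were lower and 2 higher. There the median was 0.85, against −0.02 for all genes. The ratios were 1.84 for Neurog1, 0.95 for Nhlh2, 0.851 for Elavl3, 0.24 for Tubb3 and 1.46 for Dcx. Each of these 5 ratios rests on 4 to 9 cKO cells with the gene. The Neurog1 ratio in ESC was −0.092 with the stricter barcode filter, against 2.22. The day 6 median of cKO over Parental was −4.01, and −3.39 as a mean over cells, −4.92 with the stricter filter, −5.55 in cells of neither chromosome group and −4.70 without the neuron-like cluster. In cKO the median of day 6 over day 3 covers only 2 measured genes of opposite sign, Tubb3 (−1.88) and Stmn2 (0.46). It was −0.71 in the main setting, −0.98 with TMM and −0.97 with median-of-ratios scaling. It was −0.37 as a mean over cells, −0.99 with the stricter filter and −0.98 in neither group. In Parental cells, where 7 genes were measured in the main setting, it was 3.37, and 4.30, 4.80 and 3.85 for the last 3 of these. Cells with at least 3 of the 8 genes at day 6 were 0.334% in cKO and 6.91% in Parental cells. With at least 2 genes they were 1.07% and 11.7%. In Parental cells the share was 4.59% at 1500 UMIs, 13.02% at 10000, 22.7% unthinned, 4.63% with at least 4 genes and 9.77% with 3 of 6 unthinned. The 26 neural-like cKO cells became 14 at Leiden resolution 0.5 and 12 with the larger set of variable genes. The 93 neuron-like Parental cells became 144 with 1000 variable genes. The median percent of UMIs in neural-like cKO cells over 6 genes was 70.1, and 88.4 both with 1000 variable genes and with the 8 genes kept. Within neural-like cells 2 genes were at least 2-fold lower in cKO and Neurog1 was higher (1.40). At resolution 0.5, 1 was lower and Neurog1 (2.53), Dcx (1.90) and Elavl3 (1.45) were higher. The share of all genes that differed 2-fold within neural-like cells is not given here. List medians were −0.32 (TMM) and −0.31 (median of ratios) for inhibitors and partners, against −0.39, and −0.84 and −0.82 for the paralogs, against −0.90. The main values moved by more than their counting interval in 31 of 116 alternatives and were reversed in 1. Other values moved in this way in 259 of 658 alternatives and were reversed in 6, and the causes were not tested. Counts of a few UMIs limit Neurog1, Neurog2, Nhlh2, Dcx and Mir124-2hg before day 6 and in cKO.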
